A study of Homo sapiens with 4 samples.

Results

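Genes that define the hepatocyte were followed in wild-type cells (WT) and in cells with a knockout of ZCCHC4 (ZCCHC4 KO1). The set held 47 genes chosen by name, 13 for transcription factors of the liver and 34 for liver products. It was matched through Entrez identifiers to a table of 16658 genes, and 32 of the 47 had a row there, 10 of them for transcription factors. Both groups were labelled HepG2, a line of human liver tumor origin, and untreated, and both were grown in DMEM with fetal bovine serum to near confluence. Each group had 2 libraries. ZCCHC4 encodes a methyltransferase that places N6-methyladenosine on ribosomal RNA, and ZCCHC4 KO1 is 1 knockout line made with CRISPR/Cas9, so that an effect of the knockout and a difference of this line from WT cells cannot be told apart. The comparison asks which transcripts differ without ZCCHC4, and what the cells express of the liver program in the first place. The unit is FPKM, in which sequenced fragments are normalized to transcript length and to library size, so that levels can be compared between genes.

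Hepatocyte identity is held by a circuit of transcription factors. The FOXA pioneer factors open liver chromatin, and HNF4A, the ONECUT factors and CEBPA bind each other's promoters and those of the liver products, while the nuclear receptors NR1H4, NR1I2, NR5A2 and NR0B2 tune bile acid, drug and lipid metabolism. The products are the plasma proteins that the liver secretes, such as albumin, transthyretin, fibrinogen and the apolipoproteins, and the enzymes of the urea cycle, gluconeogenesis and drug oxidation. HepG2 cells are commonly used because they keep much of this output, including albumin, apolipoproteins and AFP, the fetal counterpart of albumin that serves as a marker of liver tumors.

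Few of these genes were expressed in the libraries labelled HepG2. Of the 47 genes, 6 were at an FPKM of 1 or more in both WT libraries, namely the transcription factors FOXA1, ONECUT2 and CEBPA and the products APOM, VTN and CPS1. By role, they were 3 of 13 transcription factors, 1 of 10 carriers and other plasma proteins, 1 of 7 apolipoproteins and 1 of 9 enzymes and intracellular proteins, with none of 5 coagulation and 3 surface proteins. APOE reached that level in 1 library, of WT. The other 25 genes with a row stayed below 1 in all 4 libraries, at 0.42 or less, and 41 of their 100 values were 0. No row was found in the table used here for 15 genes, which were FOXA2, NR1I2, PROX1, ALB, TTR, TF, APOA1, APOB, APOC3, APOH, RBP4, F2, OTC, FABP1 and GPC3. A gene without a row has no value here, and the depth of the libraries is unknown, so no upper limit can be given for it. No listed gene was at 0 in all 4 libraries, so a missing row may stand for a gene at 0 throughout, which was not tested. Of 8 hepatocyte markers, ALB, AFP, APOA1, APOA2, TTR, FGA, FGB and HNF4A, 5 had a row, and their FPKM summed to 0.12 and 0.13 for WT and 0.10 and 0.26 for ZCCHC4 KO1. Those 5 markers of the labelled cell type were at or near 0 and ALB, APOA1 and TTR had no value, and the values that follow describe the cells under the names WT and ZCCHC4 KO1 only.

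**Figure D1:**
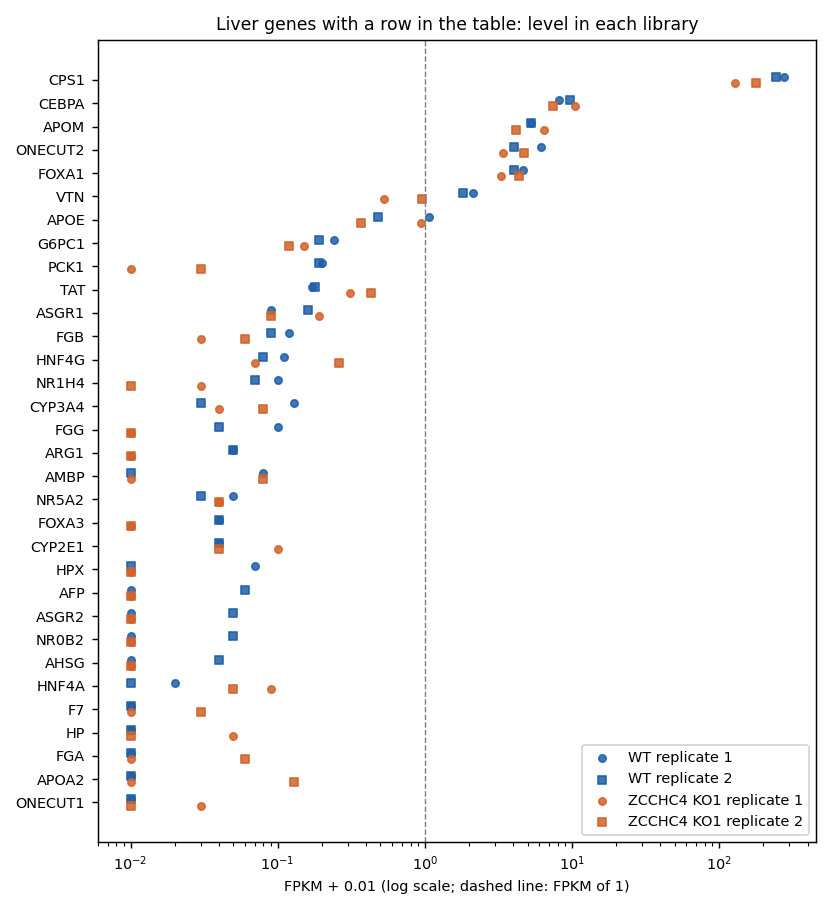
FPKM plus 0.01 on a log axis for the 32 liver genes with a row, ordered by mean WT level, with 1 point per library (blue WT, orange ZCCHC4 KO1, circles replicate 1, squares replicate 2). CPS1 stands alone at 127.67 to 275.24, 5 genes lie between 0.52 and 10.49, APOE straddles the dashed line at 1, and the other 25 genes lie at 0.42 or below.

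The libraries were comparable in scale. FPKM summed to between 512417 and 565198.6 per library, and between 10191 and 10693 genes reached an FPKM of 1. The targeted gene ZCCHC4 was at 7.22 and 5.44 FPKM in WT against 1.08 and 2.29 in ZCCHC4 KO1 (log2 fold change -1.48, SE 0.287, adjusted p = 0.0448 from limma, and 0.0514 without ZCCHC4 KO1 replicate 1). Replicates differed by transcript GC content, with a Spearman correlation over 10632 genes of 0.705 for replicate 2 minus replicate 1 in WT and of -0.764 in ZCCHC4 KO1. Nothing in the labels says that replicates came from separate cultures, so p-values measure the spread between these libraries, which may be technical.

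Among the transcription factors, CEBPA was the most abundant. CEBPA, a leucine zipper factor of liver and fat, was at 8.20 and 9.77 FPKM in WT against 10.49 and 7.45 in ZCCHC4 KO1. ONECUT2, a cut homeodomain factor of the developing liver and bile ducts, was at 6.20 and 4.05 in WT against 3.40 and 4.68 in ZCCHC4 KO1. FOXA1, a forkhead pioneer factor, was at 4.61 and 4.06 in WT against 3.29 and 4.33 in ZCCHC4 KO1. For all 3 genes the ranges of the groups overlapped, and their WT means lay at percentiles 64.1, 55.0 and 52.6 of all listed genes, around the middle of the table. Their order was not resolved throughout, since the ONECUT2 and FOXA1 libraries overlapped in both groups while CEBPA was above both in every library.

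The other factors of the circuit were at or near 0. HNF4A, the nuclear receptor on which most liver products depend, was at 0.01 and 0 FPKM in WT against 0.08 and 0.04 in ZCCHC4 KO1. Its relative HNF4G was at 0.10 and 0.07 in WT against 0.06 and 0.25 in ZCCHC4 KO1. FOXA3 was at 0.03 in both WT libraries and 0 in the others, and FOXA2 had no row. ONECUT1 was listed at 0 in both WT libraries. So FOXA1 and ONECUT2 were expressed while FOXA3 and ONECUT1 were at or near 0. The bile acid receptor NR1H4 was at 0.09 and 0.06 in WT against 0.02 and 0 in ZCCHC4 KO1, NR5A2 was between 0.02 and 0.04 in all libraries, and NR0B2, the repressor that NR1H4 induces, was above 0 only in WT replicate 2, at 0.04.

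Among the secreted products, APOM and VTN stood out. APOM, a lipocalin of high-density lipoprotein that carries sphingosine 1-phosphate, was at 5.25 and 5.24 FPKM in WT against 6.43 and 4.17 in ZCCHC4 KO1, with overlapping groups. VTN, vitronectin, an adhesive glycoprotein of plasma and matrix, was at 2.11 and 1.80 in WT against 0.52 and 0.94 in ZCCHC4 KO1, so that neither ZCCHC4 KO1 library reached the lower WT value. APOE, a lipoprotein ligand that many tissues make, was at 1.05 and 0.47 in WT against 0.93 and 0.36 in ZCCHC4 KO1. Within each group the replicates of APOE differed by more than the groups did. Its longest transcript has a GC content of 69.0%, against a median of 48.2% for the tested genes. Genes of higher GC content tended to be higher in WT replicate 2, where APOE was lower. They tended to be lower in ZCCHC4 KO1 replicate 2, as APOE was. The source of the difference between the APOE replicates was not tested.

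The classical plasma proteins were not expressed at this level. AFP was above 0 in a single library, WT replicate 2, at 0.05 FPKM. AHSG, ASGR2 and HPX were likewise above 0 in 1 WT library only, at 0.03, 0.04 and 0.06. The fibrinogen chains FGA, FGB and FGG, which assemble into 1 clotting protein from neighbouring genes on chromosome 4, reached at most 0.05, 0.11 and 0.09. APOA2, F7 and HP were listed at 0 in both WT libraries, and each was above 0 in 1 ZCCHC4 KO1 library, at 0.12, 0.02 and 0.04. Since no listed gene was at 0 throughout, any gene listed at 0 in both WT libraries is above 0 in ZCCHC4 KO1. AMBP was at 0.07 in 1 library of each group. ASGR1, a subunit of the asialoglycoprotein receptor of hepatocytes, was between 0.08 and 0.18 in all libraries. Values of this size cannot be ordered between libraries, since the table gives 2 decimals and no read counts.

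CPS1 was the exception among the products. CPS1, carbamoyl-phosphate synthetase 1, catalyses the first step of the urea cycle in mitochondria and is encoded on chromosome 2 (GRCh38, 210477685 to 210679107). It was at 275.24 and 244.92 FPKM in WT against 127.67 and 178.84 in ZCCHC4 KO1. The mean WT level of 260.1 ± 21.4 (SD, n = 2) ranked 294 among the 16658 genes and was 28.9 times that of CEBPA, the next gene of the set. CPS1 made up 90.5% and 90.2% of the summed FPKM of the set in WT, and 83.0% and 88.5% of it in ZCCHC4 KO1.

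The partners of CPS1 in the urea cycle were unevenly expressed. OTC, the next enzyme in the mitochondrion, had no row, and ARG1, the last enzyme, was at 0.04 in both WT libraries and 0 in the others. ASS1, which makes argininosuccinate in all tissues that synthesize arginine, was at 291.71 and 341.78 FPKM in WT against 480.67 and 359.41 in ZCCHC4 KO1 (adjusted p = 0.289 from limma). The next 3 genes of the cycle were picked after their values were seen. ASL, which splits argininosuccinate, was at 9.60 and 10.59 in WT, and the ornithine carrier SLC25A15 was at 13.12 and 14.41. NAGS, which makes the activator that CPS1 requires, was at 0.43 and 0.40. The cells thus had high CPS1 and ASS1 transcripts beside an ARG1 level near 0.

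The remaining enzymes were low. G6PC1 and PCK1, the enzymes that commit carbon to glucose release, were at 0.23 and 0.18 FPKM and at 0.19 and 0.18 FPKM in WT. In ZCCHC4 KO1, G6PC1 was at 0.14 and 0.11 and PCK1 at 0 and 0.02. TAT, which starts tyrosine breakdown, was at 0.16 and 0.17 in WT against 0.30 and 0.42 in ZCCHC4 KO1. The listed values of the groups did not overlap for these 3 genes, but none reached the level of 1 required for the test. Among the 32 genes with a row, 9 were lower and 2 higher in ZCCHC4 KO1 with no overlap of the groups, against 24.4% and 20.5% of all listed genes. Of these, 7 and 2 were below 1 in every library, where the order of libraries cannot be relied on, which leaves CPS1 and VTN. The drug-oxidizing CYP3A4 and CYP2E1 were at 0.12 or less in every library.

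Set against other genes, expression of the set was sparse. The 6 genes at an FPKM of 1 or more in both WT libraries made up 12.8% of the 47, whereas 50.8% of the 20052 protein-coding genes of RefSeq and 61.8% of all listed genes reached that level. A row was found for 80.0% of the RefSeq protein-coding genes. Of 57 other plasma proteins of the liver, 7 reached it (12.3%), and of 47 other hepatic enzymes and transporters, 10 did (21.3%). Of 18 other transcription factors with roles in liver, 10 did (55.6%), of which CEBPB, CEBPD and ATF5, 3 leucine zipper factors that many cell types express, were the highest at mean WT levels of 51.8, 37.3 and 55.4 FPKM.

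**Figure D2:**
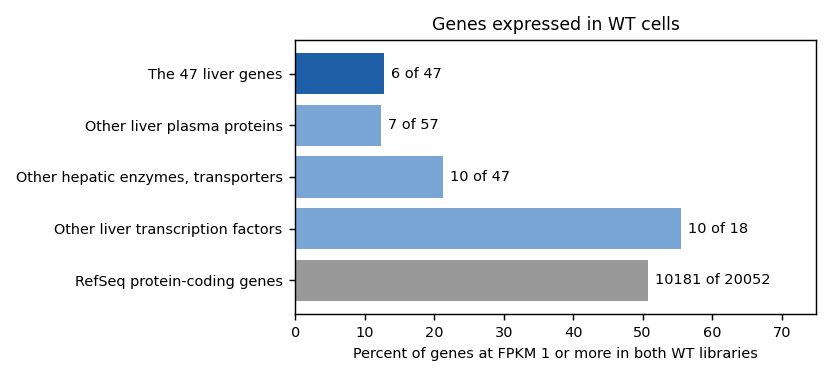
Percent of genes at an FPKM of 1 or more in both WT libraries, for the 47 liver genes, 3 further lists of liver genes and all RefSeq protein-coding genes, with the number of genes beside each bar. The 47 liver genes (6 of 47) and the other plasma proteins (7 of 57) lie far below the protein-coding genes (10181 of 20052), and the other liver transcription factors (10 of 18) do not.

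Markers of other cell types were read in the same way. Of 7 markers of biliary epithelium, all had a row and 2 were at 1 or more in both WT libraries. KRT7, a simple epithelial keratin, had a mean WT level of 2192.5 FPKM, while KRT19 was at 0.11 or less and SOX9, EPCAM, SPP1 and CFTR were at 0.10 or less in every library. Of 6 stromal markers, 3 were, with the intermediate filament gene VIM at 545 ± 12.1 FPKM, COL1A1 at 7.24 ± 0.0636 and PDGFRB at 1.97 ± 0.0424 (SD, n = 2), while COL1A2 was at 0 in both WT libraries. None of the 4 endothelial and 3 squamous markers was, and of 4 blood cell markers only the lysosomal gene CD68 was. No list was expressed throughout. In bulk RNA, fewer cells of a type and less RNA per cell cannot be told apart.

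Several liver genes of the set have a relative with a wider distribution, and in 4 pairs the relative was the one expressed. Mean WT levels of G6PC3, the ubiquitous glucose-6-phosphatase, were 412.1 times those of G6PC1 (84.5 against 0.205 FPKM). PCK2, the mitochondrial form of phosphoenolpyruvate carboxykinase, was 167.9 times as abundant as PCK1 (31.1 against 0.185), and ARG2, the mitochondrial arginase, 203 times as abundant as ARG1 (8.12 against 0.04). The oxysterol receptor NR1H3 was at 7.45 beside 0.075 for the bile acid receptor NR1H4. With denominators this near 0, the ratios themselves are imprecise. CEBPA, which was expressed, was also below its relative CEBPB, which had 5.76 times its level in WT. CPS1 was the reverse case, since CAD, the cytosolic enzyme that makes carbamoyl phosphate for pyrimidines, was at 0.17 times its level (44.2 against 260.1).

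For members without a row, the relatives with values were FABP5, the fatty acid-binding protein of epidermis, at 149 ± 3.52 FPKM beside FABP1, MELTF, melanotransferrin, at 17.2 ± 0.856 beside TF, and the vitamin D receptor VDR at 5.08 ± 0.382 beside NR1I2 (SD, n = 2 WT libraries). GPC3, a glypican used as a marker of liver tumors, had no row, and GPC1, a glypican of many epithelia, was at 25.16 and 28.25 in WT against 80.75 and 64.48 in ZCCHC4 KO1. GPC1 rose in ZCCHC4 KO1 cells (log2 fold change 1.40, SE 0.164, adjusted p = 0.0128 from limma). CYP3A5, NR5A1 and GPC6 were at 0 in the WT libraries, PROX2 was at 0.18 and 0.17, and GPC4 had no row.

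None of the 47 genes passed the test between WT and ZCCHC4 KO1 cells. The comparison was made with limma on log2(FPKM + 1) for the 10726 genes at an FPKM of 1 or more in 2 or more libraries, 6 of the 47 among them. At an adjusted p under 0.05, 0 of the 6 were higher and 0 lower, where 1.50% of all tested genes were higher and 4.48% lower. At the thresholds of the study, an adjusted p under 0.001 with a 2-fold change, 0.0186% of all tested genes were higher and 0.0559% lower, and 0 of the 6 were called. The 2-fold change was taken here on the log2(FPKM + 1) scale, which understates changes of low values. The study reported far more genes at its thresholds than were called here. With shares this small, 0 of the 6 says little about these genes. At an unadjusted p under 0.05, 2 of the 6 were lower and 0 higher, against 13.9% and 8.96% of all tested genes. The median log2 fold change of the 6 genes was -0.21, and that of all tested genes -0.03.

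The 2 genes were CPS1 and VTN. CPS1 was at 260.1 ± 21.4 FPKM in WT against 153.3 ± 36.2 in ZCCHC4 KO1 (SD, n = 2 each), 0.589 times the WT level, with a log2 fold change of -0.78 (SE 0.193, adjusted p = 0.0806 from limma). VTN was at 1.96 ± 0.219 FPKM in WT against 0.73 ± 0.297 in ZCCHC4 KO1 (SD, n = 2 each), 0.373 times the WT level, with a log2 fold change of -0.78 (SE 0.202, adjusted p = 0.0873 from limma) on a scale that understates changes of low values. Adding 0.1 rather than 1 before taking logs gave -0.781 for CPS1 and -1.352 for VTN. Both were lower in both ZCCHC4 KO1 libraries, as were 28.5% of all tested genes, while none of the 6 was higher in both without overlap (23.1% of all tested genes). VTN entered the test through its WT libraries alone, since neither ZCCHC4 KO1 library reached 1. Its place among the lower genes, and its part in the median of the 6, therefore support no direction of the set.

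Whether CPS1 and VTN passed an adjusted p of 0.05 depended on the processing. CPS1 passed with the GC trend removed (adjusted p = 0.0113 from limma), with quantile normalization (0.0296) and without ZCCHC4 KO1 replicate 2 (0.00375), and over all 13 alternatives its adjusted p ranged from 1.14e-14 to 0.308. VTN passed with median-ratio scaling (adjusted p = 0.0288 from limma) and with quantile normalization (0.0431), and over its 12 alternatives the adjusted p ranged from 7.68e-11 to 0.389. The lowest values came from pairing the libraries in crossed order, a pairing that the labels do not give. The longest transcripts of CPS1 and VTN have GC contents of 44.2% and 59.5%. The 10 tested genes beside each, 5 per side in chromosomal order, were also read. For CPS1, 5 were higher and 5 lower (median log2 fold change -0.01, from -1.2 to 0.2). They spread over chr2:207762598-216034096, so that some lie far from CPS1. For VTN, 6 were higher and 4 lower (median 0.05, from -0.44 to 0.61), over chr17:28319200-28576895.

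The other tested genes showed small differences. Log2 fold changes were -0.27 for ONECUT2 (SE 0.262), -0.16 for FOXA1 (SE 0.211), -0.01 for CEBPA (SE 0.227) and -0.01 for APOM (SE 0.24), with adjusted p from 0.608 to 0.986 from limma. With 2 libraries per group and standard errors of this size, the levels are not shown to be equal. The directions of CEBPA and APOM turned under median-ratio scaling.

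**Figure D3:**
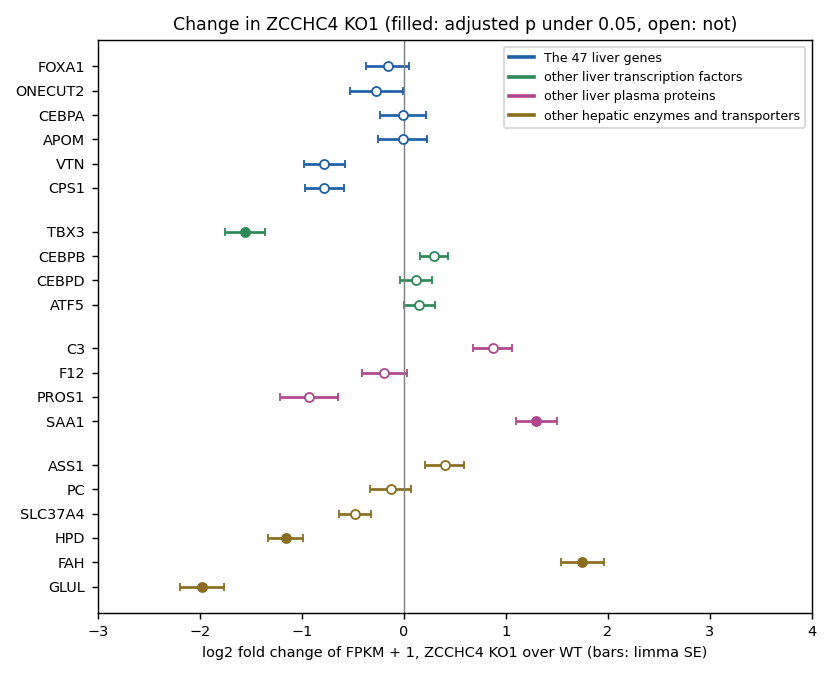
Log2 fold change of ZCCHC4 KO1 over WT on log2(FPKM + 1), with the limma standard error as bars, for the 6 tested genes of the set (blue) and named genes of 3 further liver lists; filled points have an adjusted p under 0.05. CPS1 and VTN lie at -0.78 with open points, and the filled points are TBX3, SAA1, HPD, FAH and GLUL.

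Single genes of the further liver lists passed the test, which says little about the lists as a whole. Over all tested genes, 1.50% were higher and 4.48% lower at an adjusted p under 0.05. At an unadjusted p under 0.05, 8.96% were higher and 13.9% lower. Of the 18 other liver transcription factors, 10 were tested by limma, 0 were higher and 1 was lower, also at an unadjusted p under 0.05, and their median on the log2 scale was 0.16. That gene was TBX3, a T-box repressor of the developing liver, at 10.09 and 9.45 FPKM in WT against 2.40 and 2.93 in ZCCHC4 KO1 (log2 fold change -1.56, SE 0.196, adjusted p = 0.0151 from limma). Of the 57 other plasma proteins, 8 were tested, 1 was higher and 0 were lower (3 and 4 at an unadjusted p under 0.05), and the median was -0.40. SAA1, an acute-phase protein, was at 1.34 and 1.29 in WT against 4.12 and 5.35 in ZCCHC4 KO1 (log2 fold change 1.30, SE 0.203, adjusted p = 0.0257 from limma, and 0.0567 without WT replicate 1). SAA1 belongs to a family of near-identical copies that may share reads, which makes its value uncertain. The complement protein C3 was at 5.09 and 5.83 in WT against 10.22 and 11.38 in ZCCHC4 KO1 and did not pass (adjusted p = 0.0581 from limma), and neither did PROS1, the cofactor of activated protein C (log2 fold change -0.93, SE 0.281, adjusted p = 0.122 from limma), nor coagulation factor F12 (adjusted p = 0.669 from limma).

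Of the 47 other hepatic enzymes and transporters, 10 were tested, 1 was higher and 2 were lower (1 and 4 at an unadjusted p under 0.05), and the median was -0.13. HPD, among the lower genes, entered the test through its WT libraries alone, so that its place among the lower genes supports no direction of the list. The counts of each list stand beside the shares over all tested genes. Those were 1.50% higher and 4.48% lower at an adjusted p under 0.05, and 8.96% and 13.9% at an unadjusted p under 0.05. GLUL, glutamine synthetase, which in liver marks the hepatocytes around the central vein, fell from 9.73 ± 1.48 to 1.71 ± 0.269 FPKM (SD, n = 2 each; log2 fold change -1.98, SE 0.212, adjusted p = 0.0106 from limma). FAH, the last enzyme of tyrosine breakdown, was at 2.15 and 2.23 in WT against 11.08 and 8.52 in ZCCHC4 KO1 (log2 fold change 1.75, SE 0.211, adjusted p = 0.0136 from limma). HPD, which acts after TAT in the same pathway, was at 2.76 and 2.79 in WT against 0.71 and 0.66 in ZCCHC4 KO1 (log2 fold change -1.16, SE 0.172, adjusted p = 0.0225 from limma). SLC37A4, the transporter that feeds glucose-6-phosphatase, and pyruvate carboxylase (PC) did not pass (log2 fold changes -0.47 and -0.13, adjusted p = 0.15 and 0.756 from limma). Of the stromal markers, COL1A1 was lower (log2 fold change -1.26, SE 0.189, adjusted p = 0.0235 from limma, 0.0909 without WT replicate 1 and 0.0597 without WT replicate 2), while VIM, which makes up nearly all of the summed level of that list (546.4 and 563.3 FPKM in WT against 392.5 and 416.7 in ZCCHC4 KO1), did not pass (log2 fold change -0.44, adjusted p = 0.125 from limma). The part of the marker lists in the changes of liver genes was not tested.

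The start regions of the set were read from RefSeq sequences of GRCh38.p14, which held 33 of the 47 genes, as windows of 300 bases from 250 before to 50 after each annotated start. The letters GTTAAT, a pattern of liver promoters, occurred on either strand in a window of 11 of the 33 genes (33.3%), against 8.27% of 27305 genes with a window. The 11 genes were HNF4A, NR1H4, NR5A2, ALB, AFP, APOH, FGA, FGB, F2, G6PC1 and FABP1. None of the 6 genes expressed in WT was among them. At a share of 8.27% over all genes, 0 of 6 says little about these genes. The letters TTGCNNAA, read as a C/EBP-type pattern, occurred in 10 of 33 (30.3%, against 12.7% of all genes), TATAAA in 11 (33.3%, against 14.0%) and TGTTTAC, a forkhead pattern, in 2 (6.06%, against 4.19%). Matches of different patterns were counted apart and may overlap, and a gene with several starts counted once if any window matched. A match describes letters and not binding, and no match says only that these letters are not in the window.

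Shown here are the 250 bases before the start for AFP and FGB, which were at or near 0, and ALB, which had no row, all of which hold GTTAAT or its reverse complement, which stands in capitals, and for the 2 most abundant genes of the set, which do not. They allow the AT-rich, CpG-poor starts of these liver products to be set beside that of CEBPA. ALB lies at chr4:73404037-73404286 (plus strand), AFP at chr4:73435971-73436220 (plus strand), FGB at chr4:154562730-154562979 (plus strand), CEBPA at chr19:33302535-33302784 (minus strand) and the most upstream of 3 starts of CPS1 at chr2:210477435-210477684 (plus strand), all written 5′ to 3′ along the gene. The match begins 61 bases before the start in ALB, 132 in AFP and 51 in FGB. FGB has 2 annotated starts, and the start shown was chosen by its number of matches.
ALB: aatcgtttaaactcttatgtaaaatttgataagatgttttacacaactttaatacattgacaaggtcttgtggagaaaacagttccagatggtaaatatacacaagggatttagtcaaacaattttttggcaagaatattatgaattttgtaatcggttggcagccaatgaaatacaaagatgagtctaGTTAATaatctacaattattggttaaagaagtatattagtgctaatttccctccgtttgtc
AFP: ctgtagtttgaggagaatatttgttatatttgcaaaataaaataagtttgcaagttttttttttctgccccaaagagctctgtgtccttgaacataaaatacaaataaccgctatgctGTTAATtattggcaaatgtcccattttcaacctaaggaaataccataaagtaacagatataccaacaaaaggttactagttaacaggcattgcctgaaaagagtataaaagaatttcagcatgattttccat
FGB: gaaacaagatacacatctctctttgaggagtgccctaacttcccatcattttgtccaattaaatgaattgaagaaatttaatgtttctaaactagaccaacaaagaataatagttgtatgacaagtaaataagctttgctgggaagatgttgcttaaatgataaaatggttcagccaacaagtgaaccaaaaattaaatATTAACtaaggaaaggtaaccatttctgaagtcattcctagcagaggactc
CEBPA: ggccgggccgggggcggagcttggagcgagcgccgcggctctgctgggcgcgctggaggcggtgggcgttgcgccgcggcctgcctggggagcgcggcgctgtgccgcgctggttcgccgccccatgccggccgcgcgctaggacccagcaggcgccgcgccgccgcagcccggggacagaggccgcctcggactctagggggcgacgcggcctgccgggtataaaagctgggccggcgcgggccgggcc
CPS1: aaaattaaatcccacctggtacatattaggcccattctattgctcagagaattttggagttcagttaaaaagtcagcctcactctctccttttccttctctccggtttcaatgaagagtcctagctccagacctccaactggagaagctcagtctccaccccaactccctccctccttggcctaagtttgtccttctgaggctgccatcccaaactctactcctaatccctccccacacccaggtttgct

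Base composition differed in the median between factors and products, with exceptions on both sides. These 250 bases have a GC content of 30.0% in ALB, 31.6% in AFP and 33.2% in FGB, with 3, 1 and 0 CpG dinucleotides, against 81.2% and 41 CpG in CEBPA. Those of CPS1 have a GC content of 48.4% and 1 CpG. In the windows of 300 bases, the median number of CpG dinucleotides was 24 over the 9 transcription factors and 3 over the 24 products, beside 16 over all genes. CEBPA, FOXA1 and ONECUT2 had 50, 34 and 24. APOM, VTN and CPS1 had at most 3, 5 and 3, below the median of 16 over all genes. ONECUT1 and FOXA3, at or near 0, had 39 and 37, close to FOXA1. HNF4A, NR1H4, NR1I2 and NR5A2 had at most 11, 2, 5 and 16. A window with 20 or more CpG was found for 5 of the 9 factors and 2 of the 24 products, TF (36) and RBP4 (42). The gene-level FPKM does not say which start of CPS1 was used.

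**Figure D4:**
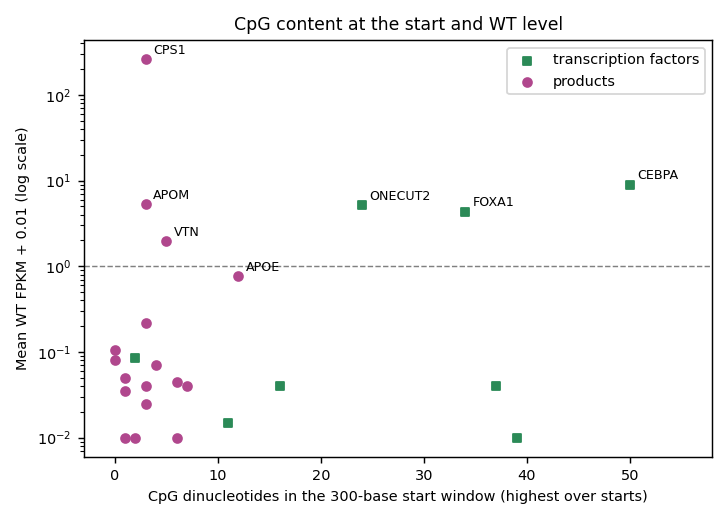
Mean WT FPKM plus 0.01 on a log axis against the number of CpG dinucleotides in the 300-base start window (the highest over starts), with 1 point for each of the 25 liver genes that have both a row and a window (squares transcription factors, circles products). Genes above the dashed line at 1 occur at both ends, with CPS1, APOM and VTN at 3 to 5 CpG and ONECUT2, FOXA1 and CEBPA at 24 to 50.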

How the data were processed

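RNA-seq values of 4 libraries were used, 2 of WT and 2 of ZCCHC4 KO1 cells. Per the study's supplement, reads were aligned to GRCh38 with Bowtie2 and expression was estimated with RSEM. The authors deposited FPKM values to 2 decimals, with no read counts, so the depth is unknown and precision rests on 2 libraries per group. Versions, read filters and annotation are not given in the sources used here.

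Entrez identifiers were matched to RefSeq symbols (GRCh38.p14), found for 16384 of 16658 genes. Genes at an FPKM of at least 1 in at least 2 libraries were tested on the log2(FPKM + 1) scale by limma (version 3.58.1 under R 4.3.3; lmFit and eBayes with a trend, two-sided) with Benjamini-Hochberg adjustment over all 10726 genes and no replicate term. The code was tested on simulated data. GC content came from the longest GENCODE v44 transcript and covered 99.1% of tested genes. FPKM is not a count, so no count model was used.

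The set and the lists were chosen with earlier results of these data known. Values per library are given for each gene of the set that reached an FPKM of 1 and for AFP and HNF4A. Of each other list, the 3 highest in WT and up to 5 genes called at an adjusted p under 0.05 are named, with the relatives of the set and ZCCHC4. Others were picked after their values were seen, and some genes that the rule names are not reported here. Alternatives were another pseudocount, filter, scaling or variance model, a replicate block, removal of the GC trend (natural spline, 4 degrees of freedom) and leaving out each library. The crossed block, and the alternatives for the further lists, were added after seeing the data.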

Additional observations from a re-analysis of the deposited data

How the results depend on the processing

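With 2 libraries per group and an unknown depth, levels below an FPKM of about 1 carry no usable order. The number of genes of the set lower in ZCCHC4 KO1 was 0 as reported, 1 with no filter on low values (PCK1, adjusted p = 0.048 from limma), 1 with median-ratio scaling, 1 with the GC trend removed, 2 with quantile normalization and 2 with the crossed block, and from 0 to 1 with a library left out (1, CPS1, without ZCCHC4 KO1 replicate 2). With the replicate block it stayed at 0, and 0 genes were higher or passed the thresholds of the study under any alternative run. What causes them was not tested.

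The replicate numbers are shared by the labels only. The within-group differences correlated at -0.787 (Pearson, across genes), so same-numbered libraries deviated in opposite directions, and the replicate block gave 0 lower and 0 higher genes of the set. The crossed numbers, chosen after seeing the data, gave 2 lower.

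For the tested genes of the set, the median log2 fold change, -0.213, was -0.027 with no filter (32 genes) and -0.015 at a minimum FPKM of 5, since other genes enter it, and from -0.384 to -0.105 with a library left out, lowest without ZCCHC4 KO1 replicate 2 (-0.384) and without WT replicate 2 (-0.378). The number at the WT level was 3 of 47 at a minimum FPKM of 5 in place of 1. ZCCHC4 was at -1.923 with a pseudocount of 0.1 (adjusted p = 0.0551 from limma), at -1.476 with no filter (adjusted p = 0.115) and from -1.807 to -1.145 with a library left out, not passing without ZCCHC4 KO1 replicate 1 (adjusted p = 0.0514).

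Calls among the other plasma proteins, 1 as reported, were 0 with no filter, 5 with median-ratio scaling, 5 with quantile normalization, 2 without a trend, 5 with the GC trend removed and 7 with the crossed block, and from 0 to 2 with a library left out (0 without WT replicate 1, 2 without WT replicate 2 or without ZCCHC4 KO1 replicate 2). Other hepatic enzymes, 3 as reported, were 5 with the GC trend removed and 6 with the crossed block, and other liver transcription factors, 1 as reported, were 4 with the crossed block. SAA1 did not pass with no filter (adjusted p = 0.0747 from limma) or without WT replicate 1 (0.0567), nor COL1A1 with no filter (0.066) or without WT replicate 1 (0.0909) or WT replicate 2 (0.0597). TBX3, GLUL, FAH and GPC1 passed under all 13 alternatives and HPD under all 12 that included it.

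Signs turned for 8 named genes, none past an adjusted p of 0.549. With median-ratio scaling CEBPA was at 0.056, APOM at 0.057 and NR1H3 at 0.052, and with quantile normalization CEBPA was at 0.077, APOM at 0.098, NR1H3 at 0.091 and VDR at 0.005. CEBPD was at -0.041 with the GC trend removed. With a library left out, values ran from -0.313 to 0.001 for FOXA1, from -0.236 to 0.207 for CEBPA, from -0.273 to 0.251 for APOM, from -0.01 to 0.244 for CEBPD, from -0.316 to 0.052 for PC, from -0.358 to 0.032 for PCK2 and from -0.141 to 0.106 for NR1H3. ONECUT2 kept its sign but ran from -0.526 to -0.015.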
